A study of Mus musculus with 30 samples.

Results

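The lipid-associated macrophage genes described here are Trem2, Cd36, Cd9, Gpnmb, Spp1, Lpl, Fabp4, Fabp5, Lipa and Plin2, 10 genes chosen by name. All 10 were present in both deposited count tables, 1 of adipose tissue macrophages (ATMs) with 17059 genes and 1 of whole BM cells with 13353 genes. Each table holds 15 RNA-seq libraries, 3 for each of 5 groups of mice, and all 10 genes passed the low-count filter in both. Every member had at least 62 counts in every library.

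The study asked how obesity acts on blood cells that carry an activated SHP2 phosphatase, and whether a GLP-1R agonist and an IL-17A antibody change this. According to the sample labels, lethally irradiated recipients (700 cGy and 400 cGy) received CD45.2+ BM of Shp2E76K/+;LysM-Cre+ donors mixed with an equal number of CD45.1+ BM cells of Boy/J competitors. The WT group were C57BL/6 recipients. The other 4 groups were leptin-deficient Ob/Ob recipients, randomized 8 weeks after transplantation and treated for 30 days with vehicle (Vehicle), with beinaglutide at 3 mg/kg s.c. (GLP-1R agonist), with an anti–IL-17A antibody at 200 µg per mouse i.p. 3 times weekly (anti–IL-17A), or with both (Combo). The labels give an age of 12–14 weeks without the stage of the experiment it refers to, and mice of both sexes. LysM-Cre acts in myeloid cells, so the mutant allele is not recombined in all donor cells, and fat of an irradiated recipient can keep macrophages of the host. The labels describe the donor cells for the experiment as a whole and not for single samples, so a difference in donor cells could not be told apart from a difference in recipient in comparisons with WT. For WT no treatment, days of dosing or time from transplantation is labelled. Vehicle dosing and timing could thus not be told apart from the recipient in these comparisons either. The genotype field gives C57BL/6J for every sample, so the obese recipients are known from the treatment text. The labels give 3 mice per group for Vehicle and the 3 treatments and 3 biological replicates for each group, and p-values measure the spread between these libraries.

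Lipid-associated macrophages gather around large or dying adipocytes in obese fat, where they take up fatty acids and lipid-laden debris, break down lipid in lysosomes and store it in droplets. TREM2, a surface receptor that binds lipids and lipoproteins and signals through the adaptor TYROBP, is required in mice for much of this program. The 10 genes cover its steps: lipid sensing and uptake (Trem2, Cd36), surface proteins of these cells (Cd9, Gpnmb), secreted proteins (Spp1, Lpl), cytosolic fatty acid carriers (Fabp4, Fabp5), lysosomal lipid hydrolysis (Lipa) and the coat of lipid droplets (Plin2). Several are not restricted to macrophages, since Fabp4, Cd36 and Lpl are also expressed by adipocytes, and Fabp4 and Cd36 by capillary endothelium.

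Libraries held 24876074 to 45300263 counts in ATMs and 31086184 to 39925495 in BM. Levels are given as normalized CPM, which relates each count to the library size after TMM scaling. The biological coefficient of variation of the members was 3.53% to 7.20% in ATMs and 2.46% to 5.49% in BM, against a value over all genes of 32.5% in ATMs and 3.51% in BM. Replicate libraries of a group differed by more than sampling noise throughout, with a chi-square per degree of freedom of 11.7 to 26.8 in ATMs and 2.02 to 34.8 in BM. The highest BM values involved WT replicate 1.

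The sorted fraction differed between groups in more than the 10 genes. The 10 macrophage markers summed to 4532 to 4789.9 CPM in WT, 2688 to 2850.1 in Vehicle, 10826 to 11284 in GLP-1R agonist, 16032 to 16263 in anti–IL-17A and 11385 to 11446 in Combo libraries. Under TMM, 2 of the 10 rose in Vehicle relative to WT, 4 fell and 4 were not called (median log2 fold change -0.62). Fcgr1, an IgG receptor, rose by 3.72 and Cd68, a lysosomal membrane protein, by 1.01, whereas Csf1r (-3.52), Adgre1 (-2.30), C1qa (-1.28) and Lyz2 (-1.21) fell, all named after their values were seen, and the last 2 fell by less than the shift of the Csf1r and Adgre1 scale given further on. Csf1r and Adgre1 fell most of the 10, with Csf1r, the receptor that macrophages need to survive, at 531 to 556 CPM in WT and 38.4 to 54.4 in Vehicle libraries. Adgre1, which encodes the F4/80 antigen of the sort, had 192 to 229.6 CPM in WT and 30.2 to 52.4 in Vehicle libraries. In the treated groups Csf1r lay between 665 (Combo) and 1046 CPM (anti–IL-17A). Neutrophil markers (7 of 8 listed genes present) summed to 18789.8 to 19939 CPM in Vehicle and 10146 to 10478 in Combo, and to at most 346 in the other groups. Endothelial markers (9 of 9 present) summed to 3885 to 3966 CPM in Vehicle and 742 to 1074 elsewhere. Fibroblast and mesothelial markers (8 of 8) were lowest in Vehicle, at 5818 to 6227 CPM against 13189.5 to 24212 in the other groups. Resident macrophage markers (8 of 9) summed to 2102 to 2229.7 CPM in WT and 229 to 276 in Vehicle. Epididymis markers (6 of 8) reached 2993 to 3142 in WT and pancreatic acinar markers (8 of 8) 1125 to 1161 in Combo libraries, the highest group for each. No macrophage, neutrophil, endothelial or fibroblast marker that was present was at 0 in all libraries of a group, and the part of these lists in the results for the 10 genes was not tested. In these bulk libraries fewer cells of a type and less RNA per cell could not be told apart.

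**Figure D1:**
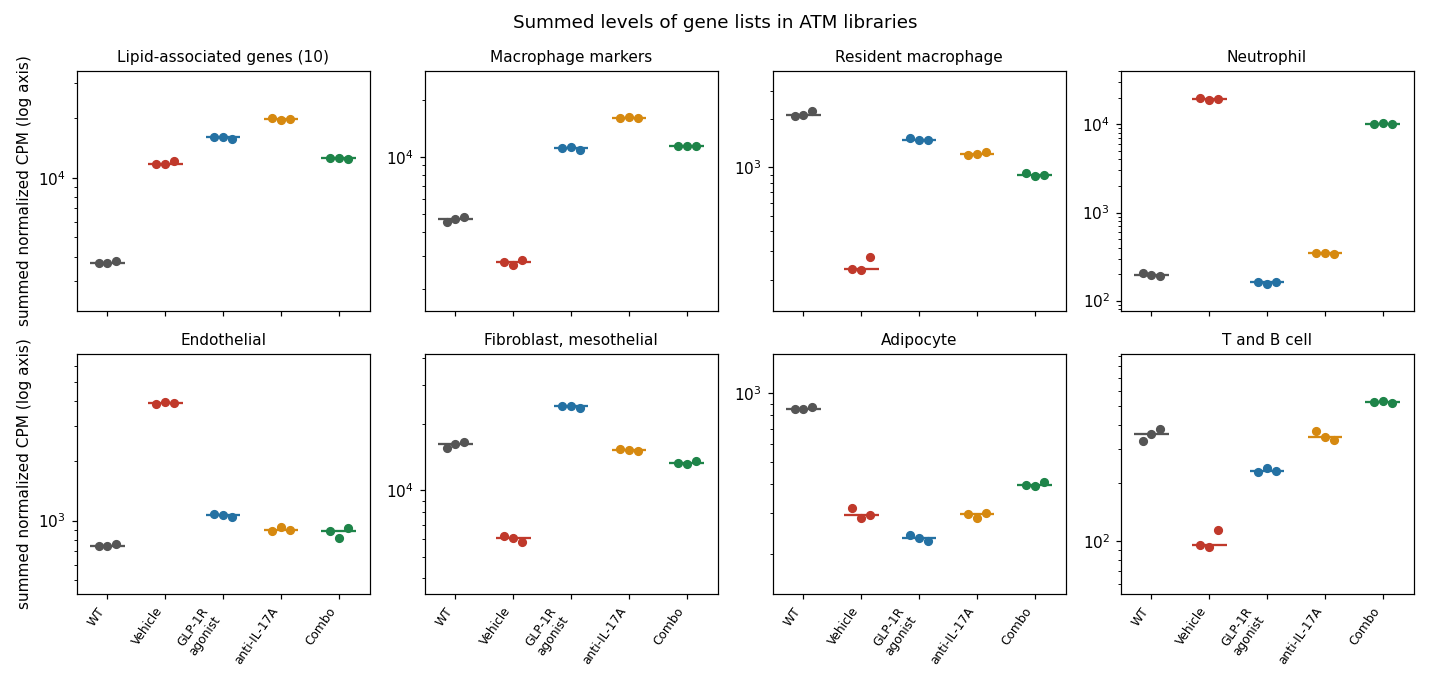
Summed normalized CPM (log axis) of the 10 lipid-associated genes and of 7 lists of cell type markers in the 15 ATM libraries, with each point 1 library and the line the median of the 3 libraries of a group. The lipid-associated genes sum to 3708 to 3784 in WT and 11768 to 12084 in Vehicle libraries, whereas the macrophage markers are lower in Vehicle than in WT.

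In GRCm38 with GENCODE M21, Trem2 lies at chr17:48346401-48354147, Cd36 at chr5:17781690-17888801, Cd9 at chr6:125460266-125494791, Gpnmb at chr6:49036546-49070929 and Spp1 at chr5:104435118-104441050. Lpl lies at chr8:68880491-68907448, Fabp4 at chr3:10204088-10208576, Fabp5 at chr3:10012548-10016607, Lipa at chr19:34492318-34527474 and Plin2 at chr4:86648386-86670060. Counts cover the exons of each gene, untranslated parts included. RefSeq promoter windows (GRCm38.p6) matched 7 of the 10 genes. They are given for Trem2, Gpnmb and Lipa, which were called higher together in all 3 treated groups of ATMs under TMM scaling but not on the macrophage scales, and for Plin2, which was not. Each runs from 250 bases before to 20 bases after the start. Capitals mark matches on either strand to an E-box of the MiT/TFE factors of lysosomal genes (CACGTG), an AP-1 motif (TGACTCA), an ETS motif of the PU.1 type (GAGGAAG) or a motif of nuclear receptors such as PPARγ and LXR (AGGTCA).
Trem2 (chr17:48346151-48346420, plus strand): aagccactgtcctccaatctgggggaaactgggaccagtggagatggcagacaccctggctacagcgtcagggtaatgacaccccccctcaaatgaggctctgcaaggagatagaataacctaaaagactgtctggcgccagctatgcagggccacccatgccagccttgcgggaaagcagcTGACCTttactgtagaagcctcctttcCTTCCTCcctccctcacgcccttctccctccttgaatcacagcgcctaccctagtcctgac
Gpnmb (chr6:49036268-49036537, plus strand): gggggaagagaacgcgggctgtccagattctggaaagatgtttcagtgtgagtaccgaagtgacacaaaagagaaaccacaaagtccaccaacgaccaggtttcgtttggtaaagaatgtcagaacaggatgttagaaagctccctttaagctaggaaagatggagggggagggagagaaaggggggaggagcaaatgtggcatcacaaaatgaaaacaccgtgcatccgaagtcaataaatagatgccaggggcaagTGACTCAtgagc
Lipa (chr19:34527455-34527724, minus strand): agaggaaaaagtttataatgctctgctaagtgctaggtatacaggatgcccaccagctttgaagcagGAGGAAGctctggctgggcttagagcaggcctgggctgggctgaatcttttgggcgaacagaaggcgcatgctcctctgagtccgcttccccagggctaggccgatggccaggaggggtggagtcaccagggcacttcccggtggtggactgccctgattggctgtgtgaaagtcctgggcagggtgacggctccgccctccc
Plin2 (chr4:86670040-86670309, minus strand): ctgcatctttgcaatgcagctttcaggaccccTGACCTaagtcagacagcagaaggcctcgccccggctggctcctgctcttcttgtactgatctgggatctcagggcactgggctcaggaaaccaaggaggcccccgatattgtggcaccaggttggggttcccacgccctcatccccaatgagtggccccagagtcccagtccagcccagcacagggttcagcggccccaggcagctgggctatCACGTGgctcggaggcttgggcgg
The Trem2 window held a nuclear receptor match 68 bases and an ETS match 41 bases before the start, both on the other strand. Gpnmb had an AP-1 match from base 9 after the start, Lipa an ETS match 183 bases before it, and Plin2 a nuclear receptor match 218 bases before it and an E-box across it. No motif was common to Trem2, Gpnmb and Lipa. Lpl, which was called together with them, had no promoter window and was not looked at. Among 32851 promoter windows of this length, 6.57% held the E-box, 4.77% the AP-1 motif, 11.6% the ETS motif and 14.96% the nuclear receptor motif.

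Obese recipients were first compared with WT recipients. In ATMs, 6 of the 10 genes rose in Vehicle relative to WT, namely Spp1, Plin2, Fabp4, Gpnmb, Cd9 and Fabp5, against 12.5% of all 17059 genes tested. None of the 10 fell by edgeR or DESeq2, against 22.9% of all genes, although 2 were lower at an unadjusted p below 0.05. A gene was called here at a false discovery rate below 0.05 (edgeR, Benjamini-Hochberg adjusted over all genes) with a log2 fold change beyond 1 in either direction. The median log2 fold change was 1.34 over the 10 genes and -0.21 over all genes. Each treated group was then compared with Vehicle. With the GLP-1R agonist Trem2, Lpl, Gpnmb and Lipa rose under TMM (4 of 10, background 20.8%), a direction that reversed with libraries scaled to Csf1r and Adgre1. Fabp4 fell (1 of 10, background 10.9%). With anti–IL-17A these 4 genes and Cd36 rose under TMM (5 of 10, background 22.4%), again reversed on Csf1r and Adgre1, and Fabp4 fell (1 of 10, background 13.1%). In Combo Trem2, Lpl, Gpnmb and Lipa rose under TMM (4 of 10, background 14.1%), with the same reversal, and Fabp4 fell (1 of 10, background 12.2%). These 3 comparisons share the Vehicle libraries, which are also those of Vehicle vs WT. Separate groups were common over all genes. The libraries of compared groups did not overlap for 43.4% to 62.9% of genes in ATMs and 61% to 76% in BM. The rises with treatment were relative to all RNA of a library, and none was called when libraries were scaled to macrophage markers. On the summed macrophage markers Trem2, Lpl and Lipa kept their sign in all 3 comparisons, and Gpnmb kept it with both single agents.

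**Figure D2:**
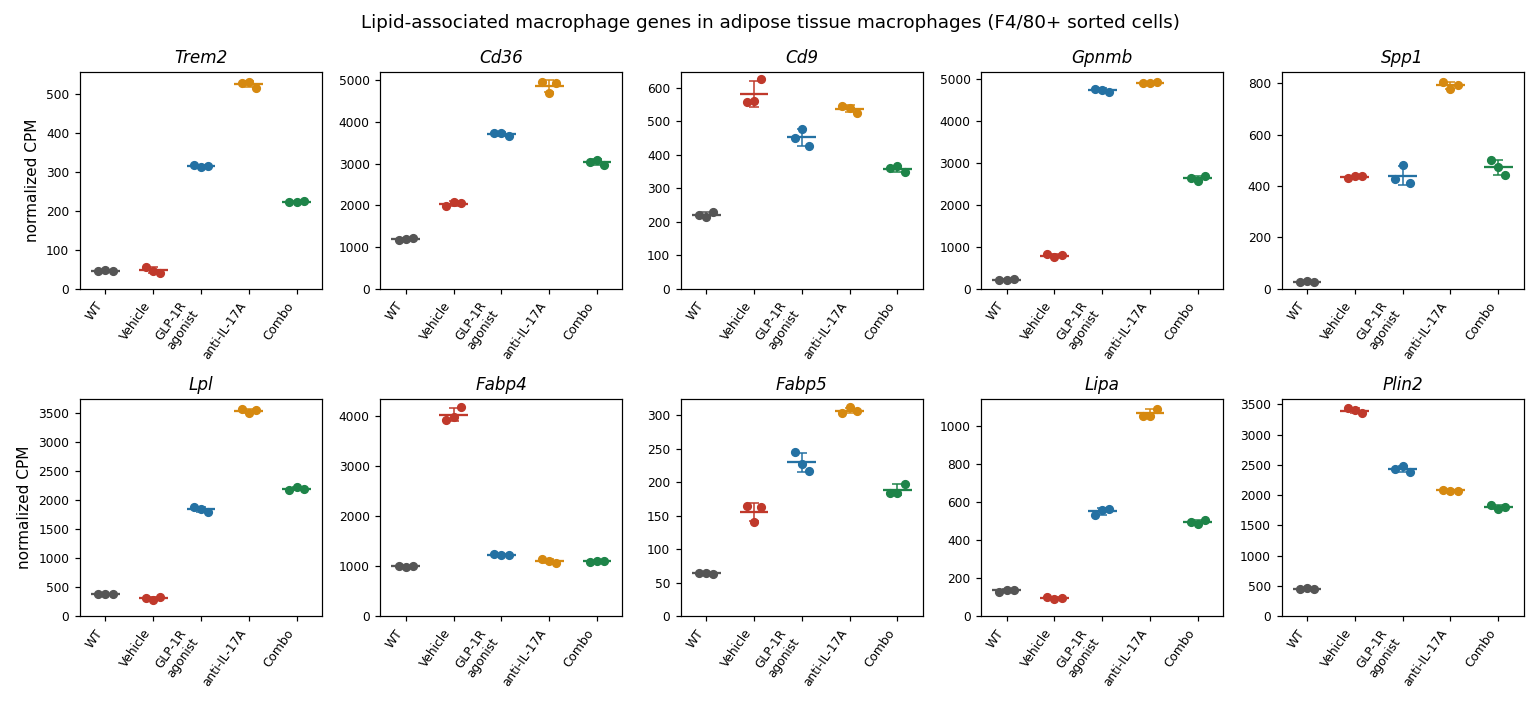
Normalized CPM of the 10 genes in the 15 ATM libraries by group, with each point 1 library, the horizontal line the mean and the bar 1 SD (n = 3). On this TMM scale Trem2, Lpl and Lipa are highest in anti–IL-17A, which is not so relative to Csf1r and Adgre1, whereas Fabp4, Plin2 and Cd9 are highest in Vehicle.

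Trem2, the lipid-sensing receptor that names the state, had 46.6, 47.4 and 44.9 CPM in the WT libraries and 56.2, 46.3 and 40.4 in the Vehicle libraries. It had 319, 312 and 315 CPM with the GLP-1R agonist, 527, 529.5 and 516 with anti–IL-17A and 223, 222 and 225 in Combo. WT and Vehicle overlapped, and the treated groups lay above both without overlapping each other. The log2 fold change of Vehicle against WT was 0.042 ± 0.082 (SE, n = 3 per group, edgeR adjusted p = 0.688), and -0.11 without Vehicle replicate 1. Against Vehicle, Trem2 rose under TMM, with the opposite sign on Csf1r and Adgre1, by 2.72 ± 0.085 with the GLP-1R agonist (edgeR adjusted p = 2.96e-13), by 3.46 ± 0.087 with anti–IL-17A (adjusted p = 1.78e-14) and by 2.23 ± 0.083 in Combo (adjusted p = 3.15e-12). These are changes of 6.61-fold, 10.99-fold and 4.68-fold. On the summed macrophage markers Trem2 kept this sign against Vehicle but was not called. Under TMM Combo was below anti–IL-17A by 1.23 ± 0.079 (adjusted p = 9.27e-09), a call that was lost on both macrophage scales (-0.73 on the summed markers and -0.42 on Csf1r and Adgre1).

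Cd36 is a scavenger receptor and fatty acid translocase. Its level was 1165, 1200.5 and 1209 CPM in WT, 1981, 2082 and 2060.5 in Vehicle, 3737, 3729.7 and 3653 with the GLP-1R agonist, 4951, 4702 and 4945 with anti–IL-17A and 3036, 3099 and 2962 in Combo. The groups stood in the order WT, Vehicle, Combo, GLP-1R agonist, anti–IL-17A with no overlap between neighbours. Only anti–IL-17A passed the fold limit against Vehicle under TMM, with the opposite sign on both macrophage scales, at 1.25 ± 0.029 (edgeR adjusted p = 5.05e-15). The log2 fold change of Vehicle against WT was 0.78 ± 0.028 (adjusted p = 1.73e-12), and those of the GLP-1R agonist and Combo against Vehicle were 0.86 ± 0.028 and 0.57 ± 0.028, all past the false discovery rate and below the fold limit.

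Cd9, a tetraspanin used to sort lipid-associated macrophages, had 221, 214 and 228 CPM in WT and 557, 561 and 627 in Vehicle ATMs. Levels were 451, 478 and 428 with the GLP-1R agonist, 546, 541 and 526 with anti–IL-17A and 359.7, 366 and 348 in Combo. It was highest in Vehicle, which did not overlap any other group. Cd9 rose in Vehicle by 1.39 ± 0.052 (edgeR adjusted p = 2.46e-12), and no treated group passed the fold limit against Vehicle, with values of -0.36, -0.11 and -0.70 for the GLP-1R agonist, anti–IL-17A and Combo. In GENCODE M21, 10.7% of its exon length overlaps another gene model, and a read there would be counted for each under the authors' settings.

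Gpnmb, a lysosomal and surface glycoprotein of lipid-laden macrophages and osteoclasts, was at 221, 213 and 234 CPM in WT and 819.5, 763 and 795 in Vehicle ATMs. It reached 4775, 4752 and 4703 CPM with the GLP-1R agonist, 4898, 4905 and 4937 with anti–IL-17A and 2642, 2581 and 2694 in Combo. All 5 groups were separate, with both single agents close together at the top. Gpnmb was the only member called in Vehicle vs WT (1.83 ± 0.034, edgeR adjusted p = 4.94e-16) and again with each treatment against Vehicle, in the same direction under TMM and the opposite one on Csf1r and Adgre1. Under TMM the latter log2 fold changes were 2.58 ± 0.035, 2.63 ± 0.035 and 1.74 ± 0.034 for the GLP-1R agonist, anti–IL-17A and Combo (adjusted p = 1.55e-17, 1.08e-17 and 1.29e-15). On the summed macrophage markers the sign was kept with both single agents and turned in Combo, without a call. Combo against WT was 3.57 ± 0.036, or 11.9-fold. Combo was below the GLP-1R agonist by 0.85 ± 0.033 and below anti–IL-17A by 0.90 ± 0.033, both within the fold limit.

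Spp1, which encodes the secreted matrix protein osteopontin, showed the largest obese-to-WT ratio of the 10 genes. WT libraries had 25.3, 31.98 and 24.9 CPM and Vehicle libraries 431, 437 and 438, a rise of 3.99 ± 0.089 or 15.9-fold (edgeR adjusted p = 4.48e-15). Treated libraries had 428, 482 and 412 CPM with the GLP-1R agonist, 805, 779 and 792 with anti–IL-17A and 501, 473 and 443 in Combo. The GLP-1R agonist overlapped both Vehicle and Combo, whereas anti–IL-17A stood above all other groups. Against Vehicle the log2 fold changes were 0.016 ± 0.078 (adjusted p = 0.884), 0.86 ± 0.078 (adjusted p = 1.35e-07) and 0.12 ± 0.077 (adjusted p = 0.239), so no treated group was called. Spp1 shares 18.8% of its exon length with another gene model.

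Lpl, lipoprotein lipase, releases fatty acids from lipoproteins and is secreted by macrophages, adipocytes and muscle. WT ATMs had 386, 376 and 386 CPM and Vehicle ATMs 308, 271 and 335, a log2 fold change of -0.33 ± 0.052 (edgeR adjusted p = 5.77e-05) that was within the fold limit. Levels were 1869.6, 1847 and 1792 CPM with the GLP-1R agonist, 3566, 3498 and 3539 with anti–IL-17A and 2163, 2217 and 2195 in Combo. No groups overlapped, and every treated library lay above every WT and Vehicle library. Under TMM, but not on Csf1r and Adgre1, Lpl rose by 2.59 ± 0.055, 3.54 ± 0.057 and 2.85 ± 0.055 against Vehicle with the GLP-1R agonist, anti–IL-17A and Combo (edgeR adjusted p = 2.72e-15, 8.51e-17 and 1.25e-15). On the summed macrophage markers Lpl kept this sign but was not called. Adipocyte markers (10 of 10 present) summed to 852 to 867 CPM in WT, 286 to 315 in Vehicle and 228 to 408 in the treated groups, with none of the 10 at 0. Their part in the result was not tested.

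Fabp4, a fatty acid carrier of adipocytes, macrophages and capillary endothelium, ran the other way. It had 1001, 989 and 999.7 CPM in WT and 3921, 3977 and 4172 in Vehicle ATMs. Levels were 1233, 1221 and 1223 with the GLP-1R agonist, 1137, 1103 and 1051 with anti–IL-17A and 1088, 1107 and 1095 in Combo. Vehicle stood apart from all other groups, and Combo and anti–IL-17A overlapped. Fabp4 rose in Vehicle by 2.01 ± 0.031 (edgeR adjusted p = 6.75e-17) and fell by 1.71 ± 0.031, 1.87 ± 0.031 and 1.88 ± 0.031 against Vehicle with the GLP-1R agonist, anti–IL-17A and Combo (adjusted p = 4.16e-16, 1.10e-16 and 2.14e-16). Combo differed from WT by 0.14 ± 0.030 (adjusted p = 0.00174), within the fold limit, with the opposite sign on the summed markers (-1.15, a call) and on Csf1r and Adgre1 (-0.37). The endothelial markers moved with Fabp4, at 3885 to 3966 CPM in Vehicle and 742 to 762 in WT libraries, with Pecam1 at 460.1 to 494 and 227 to 244. No endothelial marker was at 0 in any group, and their part in the result was not tested.

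Fabp5, the epidermal-type fatty acid carrier that macrophages express beside Fabp4, had 64.2, 63.7 and 63.6 CPM in WT and 165, 141 and 162 in Vehicle ATMs. It had 245, 227 and 217 CPM with the GLP-1R agonist, 303, 312 and 306 with anti–IL-17A and 184, 185 and 198 in Combo. The order was that of Cd36, with no overlap between neighbouring groups. It rose in Vehicle by 1.29 ± 0.065 (edgeR adjusted p = 1.00e-10). With anti–IL-17A the log2 fold change against Vehicle was 0.98 ± 0.063, just within the fold limit, and 1.01 without Vehicle replicate 1, which made it a call. The GLP-1R agonist and Combo differed from Vehicle by 0.56 and 0.27.

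Lipa, lysosomal acid lipase, frees fatty acids and cholesterol from lipids taken into lysosomes. Its level was 127, 139 and 139.6 CPM in WT and 102, 88.3 and 95.7 in Vehicle ATMs, a log2 fold change of -0.50 ± 0.052 (edgeR adjusted p = 7.01e-07) within the fold limit. It was 531, 559.9 and 563 with the GLP-1R agonist, 1057, 1056 and 1093 with anti–IL-17A and 495, 486 and 508 in Combo. The groups did not overlap, and Vehicle was lowest. Under TMM, but not on Csf1r and Adgre1, Lipa rose by 2.53 ± 0.054, 3.49 ± 0.056 and 2.38 ± 0.054 against Vehicle with the GLP-1R agonist, anti–IL-17A and Combo (adjusted p = 3.40e-15, 9.15e-17 and 8.78e-15), and Combo was below anti–IL-17A by 1.11 ± 0.051 (adjusted p = 2.32e-10). The latter was not called on the summed markers (-0.61) or on Csf1r and Adgre1 (-0.30). The rises of Lipa against Vehicle kept their sign on the summed markers but were not called.

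Plin2, a protein that coats lipid droplets and is stable only on them, had 449, 461 and 454 CPM in WT and 3434, 3399.7 and 3357 in Vehicle ATMs. This was a rise of 2.90 ± 0.026 or 7.47-fold (edgeR adjusted p = 1.59e-19). Treated libraries had 2427, 2481 and 2385 CPM with the GLP-1R agonist, 2083, 2073 and 2073 with anti–IL-17A and 1839, 1772 and 1807 in Combo, between WT and Vehicle and without overlap. The decreases against Vehicle of 0.48 ± 0.024, 0.71 ± 0.024 and 0.91 ± 0.024 were past the false discovery rate and within the fold limit. Combo stayed above WT by 1.99 ± 0.025 (adjusted p = 7.77e-18) under TMM and by 0.70 on the summed markers, where it was not called.

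**Figure D3:**
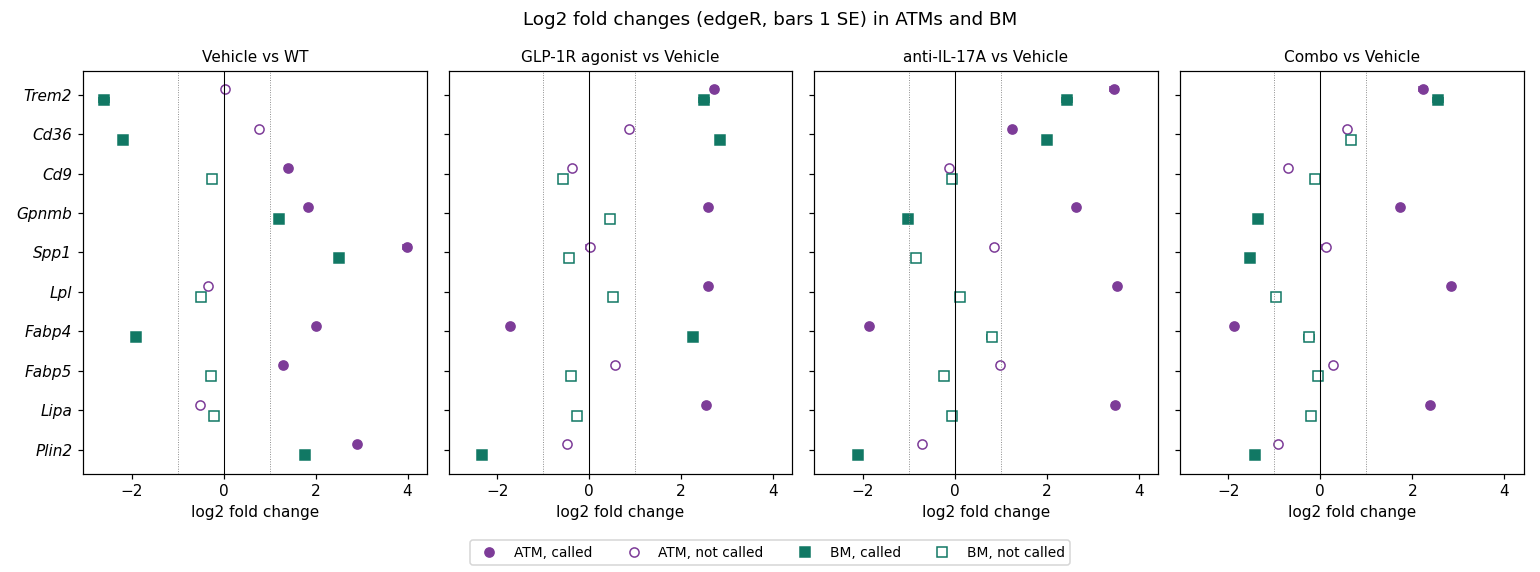
Log2 fold changes (x axis) of the 10 genes in ATMs (circles) and BM (squares) for Vehicle vs WT and for each treated group vs Vehicle, with filled symbols for calls, bars of 1 SE (mostly smaller than the symbol) and dotted lines at the fold limit. In BM Trem2 changes by -2.61 in Vehicle vs WT and by 2.51, 2.43 and 2.56 in the GLP-1R agonist, anti–IL-17A and Combo comparisons, whereas Spp1 and Plin2 rise in Vehicle in both tissues. All positive ATM values of the treated groups change sign relative to Csf1r and Adgre1.

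Against WT, Combo ATMs had 8 of the 10 genes higher under TMM (background 7.08%), with Cd9 (0.69) and Fabp4 (0.14) within the fold limit. On the summed macrophage markers 3 of these calls were left, Spp1 (2.82), Gpnmb (2.28) and Lpl (1.23), Trem2 was 0.98, Cd9 turned to -0.60 and Fabp4 was called lower. On Csf1r and Adgre1 7 of the 8 calls were left, without Cd36 (0.84). Under TMM none was lower by edgeR or DESeq2 (background 14.5%), and 0 were at an unadjusted p below 0.05. Spp1 (4.11 ± 0.090) and Gpnmb (3.57 ± 0.036) were the largest of the 8 rises and Cd36 (1.35 ± 0.029) the smallest. Between Combo and the GLP-1R agonist 0 of the 10 were called higher (background 5.38%) or lower (background 13.4%) by edgeR or DESeq2, with 1 higher and 8 lower at an unadjusted p below 0.05. The values ran from -0.85 ± 0.033 for Gpnmb to 0.26 ± 0.051 for Lpl, with no call and no change of sign on either macrophage scale. Against anti–IL-17A, 0 were higher by edgeR, by DESeq2 or at an unadjusted p below 0.05 (background 3.73%), and Trem2 and Lipa fell in Combo under TMM (2 of 10, background 10.5%). On both macrophage scales 0 of 10 were called there, and the other members but Gpnmb turned above 0 on Csf1r and Adgre1. Fabp4 had the smallest difference under TMM, at -2.4e-04 ± 0.030 (edgeR adjusted p = 0.998).

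Because the macrophage markers themselves differed between groups, the 10 genes were also read relative to them, an alternative chosen after the values were seen. The summed markers moved every log2 fold change by 0.75 in Vehicle vs WT and by -2.001, -2.54 and -2.04 in the GLP-1R agonist, anti–IL-17A and Combo comparisons with Vehicle. Csf1r and Adgre1, the pair of the 10 markers that fell most in Vehicle, moved them by 3.10, -3.73, -4.42 and -3.61. Lyz2 was the most counted of the summed markers, at 899 to 972 CPM and 32.8% to 34.1% of the sum in Vehicle and 7072 to 7173 CPM and 61.8% to 62.7% in Combo. Granulocytes also express Lyz2, neutrophil markers were highest in these same groups, and their part in the summed scale was not tested. With libraries scaled to the summed macrophage markers, 7 of 10 genes were called higher in Vehicle than in WT, and scaled to Csf1r and Adgre1 alone, all 10 were. On Csf1r and Adgre1 most of all genes tested were called as well, counting either direction. The summed markers raised every gene alike there, and the share of all genes called is not given for them. Neither count is therefore read as particular to the 10 genes. On the summed markers and on Csf1r and Adgre1, Spp1 had log2 fold changes of 4.74 and 7.08, and Trem2 0.80 and 3.14. Lpl and Lipa, lower in Vehicle under TMM, turned to 0.42 and 0.25 on the first scale. Against Vehicle, none of the 10 genes was called higher in any treated group on either scale. On the summed markers 6 of 10 were called lower in each treated group (Cd36, Cd9, Spp1, Fabp4, Fabp5 and Plin2). Spp1, Fabp5 and Cd36, with values above 0 under TMM, were below 0 in all 3 on both scales. On Csf1r and Adgre1, 10 fell with the GLP-1R agonist, 7 with anti–IL-17A and 9 in Combo. Most of all genes tested were also called against Vehicle on both scales, counting either direction, with their numbers in the last section. Such counts are therefore not particular to the 10 genes. For Combo vs Vehicle, Trem2 was 0.18 on the first scale and -1.38 on the other, Lpl 0.81 and -0.77, and Gpnmb -0.31 and -1.87. The order among the members was kept by construction, since a scaling moves every gene of a library alike: Lpl, Lipa, Trem2 and Gpnmb remained the highest and Fabp4 the lowest of the 10 in each treated group against Vehicle. In the comparisons of Combo with WT, the GLP-1R agonist and anti–IL-17A the shifts were -1.29, -0.042 and 0.50 on the summed markers and -0.51, 0.13 and 0.81 on Csf1r and Adgre1.

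**Figure D4:**
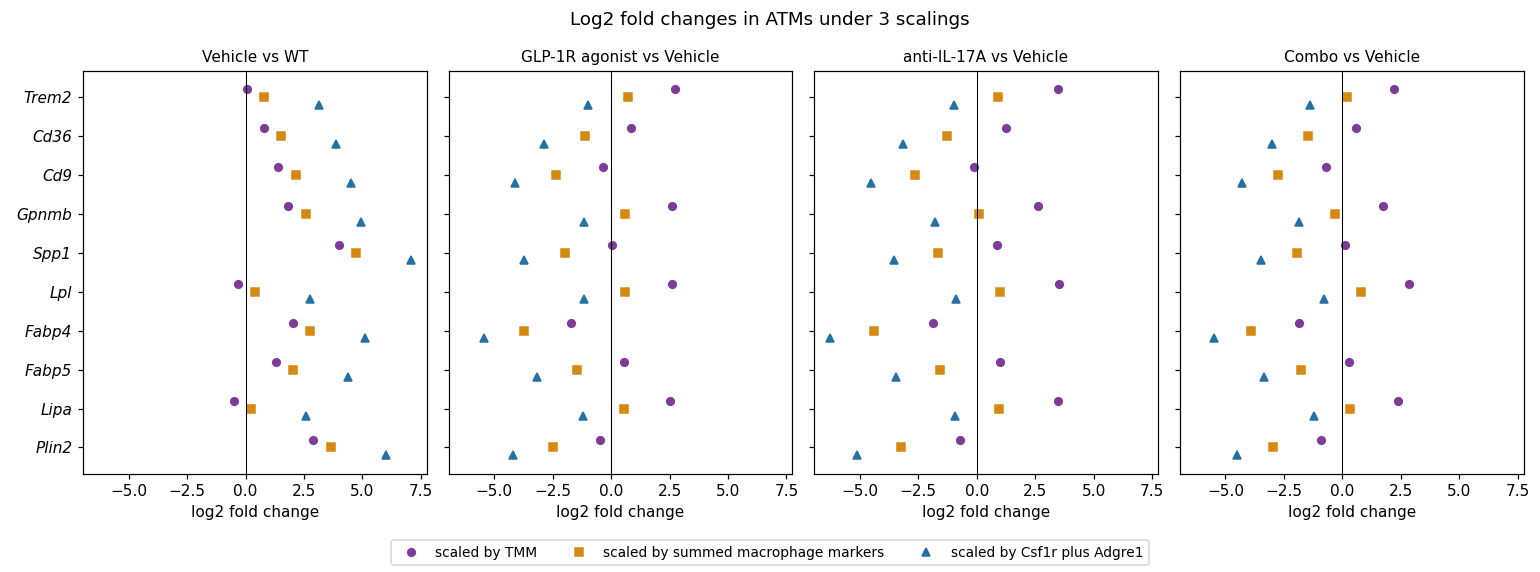
Log2 fold changes (x axis) of the 10 genes in ATMs with libraries scaled by TMM (circles), by the 10 summed macrophage markers (squares) and by Csf1r plus Adgre1 (triangles). For Trem2 in Combo vs Vehicle the values are 2.23, 0.18 and -1.38, so the direction depends on the scale.

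Per kilobase of exon (GENCODE M21 exon union), Cd36 was the most abundant of the 10 genes in WT ATMs (332 CPM per kb, mean of 3) and Plin2 in Vehicle ATMs (967), followed by Fabp4 (896). In the treated groups Cd36 led again, at 1032 with the GLP-1R agonist, 1355 with anti–IL-17A and 845 in Combo. Trem2 was the least abundant member per kilobase in WT, Vehicle, GLP-1R agonist and Combo ATMs, at 9.37, 9.63, 63.7 and 45.1. With anti–IL-17A Fabp5 was the least abundant, at 86.1. In BM, Cd9 led in every group but Vehicle, at 84.4 to 148 CPM per kb, and Plin2 led in Vehicle, at 141. These lengths include all annotated isoforms and retained introns, which lowers the value of genes such as Fabp4, and the order of the genes per kilobase depends on them.

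Genes of the same pathway were counted over lists chosen by function, with adjusted p-values from edgeR over all genes. Over all genes 12.5% rose and 22.9% fell in Vehicle vs WT (median -0.21), and 14.1% rose and 12.2% fell in Combo vs Vehicle (median 0). Of 15 partners of TREM2 signalling, 1 rose and 3 fell in Vehicle vs WT (median -0.24), and 4 rose and 1 fell in Combo vs Vehicle (median 0.39). In Vehicle vs WT the partners were thus not called more often than all genes. Apoe, a lipoprotein ligand of TREM2, fell with a log2 fold change of -1.52 ± 0.029 (adjusted p = 5.51e-16) in Vehicle and rose by 1.86 ± 0.029 (adjusted p = 1.45e-16) in Combo. Clec7a, the β-glucan receptor dectin-1, had -1.30 ± 0.14 (adjusted p = 1.33e-06) and 2.88 ± 0.15 (adjusted p = 1.63e-10). These values are under TMM, and all 4 are smaller than the shift of the Csf1r and Adgre1 scale, which reverses them. Msr1, a scavenger receptor, rose in Vehicle by 1.19 ± 0.10 (adjusted p = 7.68e-08), and Clu, clusterin, fell in Combo with -1.67 ± 0.051 (adjusted p = 2.30e-13).

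Among 25 other genes of lipid-associated and lysosomal macrophages, 8 rose and 2 fell in Vehicle vs WT (median 0.73). Lgals3, the lectin galectin-3, rose by 1.94 ± 0.030 (adjusted p = 6.75e-17), Npc2, a lysosomal cholesterol carrier, by 1.605 ± 0.047 (adjusted p = 1.10e-13), and Itgax, the integrin chain CD11c, fell with -1.53 ± 0.23 (adjusted p = 3.89e-05). In Combo vs Vehicle 9 rose and 1 fell (median 0.66), led by Dcstamp, a protein of cell fusion, at 3.27 ± 0.32 (adjusted p = 3.59e-07). Itgax followed with 2.60 ± 0.23 (adjusted p = 1.56e-07) and Atp6v0d2, a subunit of the lysosomal proton pump, with 2.12 ± 0.072 (adjusted p = 9.34e-13). With the GLP-1R agonist 14 rose (background 20.8%), and with anti–IL-17A 17 rose (background 22.4%), all under TMM. The fall of Itgax in Vehicle and the rises of the 3 genes in Combo also reversed with the Csf1r and Adgre1 scale. The background percentages are those of the members' comparisons.

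Of 18 regulators of the members, 7 rose and 1 fell in Vehicle vs WT (median 0.85), and 7 fell in Combo vs Vehicle (median -0.51). G0s2, an inhibitor of the droplet lipase ATGL, rose by 4.83 ± 0.077 (adjusted p = 8.60e-17) and fell with -2.35 ± 0.068 (adjusted p = 1.47e-13). Gpihbp1, which carries lipoprotein lipase across capillary endothelium and is also on the endothelial marker list, rose by 3.09 ± 0.073 (adjusted p = 7.91e-15) and fell with -1.91 ± 0.069 (adjusted p = 2.16e-12). Angptl4, an inhibitor of lipoprotein lipase, rose by 2.43 ± 0.050 (adjusted p = 1.69e-15) and fell with -2.39 ± 0.050 (adjusted p = 3.00e-15). All 6 values keep their sign on both macrophage scales.

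Across the 15 ATM libraries, the genes whose log2 CPM was most like that of Trem2 were Laptm5 (Pearson r = 0.998), Pld3 (0.995), Anpep (0.991), Gusb (0.991) and Adcy3 (0.991), of 16583 genes compared. Those most like the mean z-score of the 10 genes were Lgals3 (0.998), Pla2g7 (0.990), Ftl1 (0.983), Akr1b8 (0.981) and Mpeg1 (0.980). Of the members, Fabp5 was closest to that mean (r = 0.997) and Fabp4 farthest from it (r = 0.0471). The 15 libraries fall into 5 groups and share their scaling, so these values are descriptions.

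BM was sequenced as whole marrow, in which macrophages are a small share, and the 10 genes took 0.0563% to 0.0988% of its counts, against 0.415% to 2.08% in ATMs. Neutrophil markers (7 of 8 present) summed to 73342 to 120392 CPM and macrophage markers to 4295 to 14438, most of it Lyz2, which granulocytes also express. Csf1r overlapped between WT and Vehicle there, at 132 to 141 and 137 to 140.0 CPM. Adgre1 did not, at 38.7 to 42.9 CPM in WT and 22.3 to 24.9 in Vehicle. The macrophage markers summed to 14143 to 14438 CPM in WT and 5036 to 5062 in Vehicle. Of these 10 markers, 2 rose and 1 fell in Vehicle vs WT (median 0.13), and their part in the results was not tested. In Vehicle vs WT 3 of 10 genes rose, Spp1, Plin2 and Gpnmb (background 9.44%), and 3 fell, Trem2, Cd36 and Fabp4 (background 10%). Against Vehicle, Cd36, Trem2 and Fabp4 rose and Plin2 fell with the GLP-1R agonist (background 7.6% higher and 9.08% lower). With anti–IL-17A Trem2 and Cd36 rose and Plin2 and Gpnmb fell (background 7.65% and 8.46%). In Combo Trem2 rose and Spp1, Plin2 and Gpnmb fell (background 6.58% and 11.1%).

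**Figure D5:**
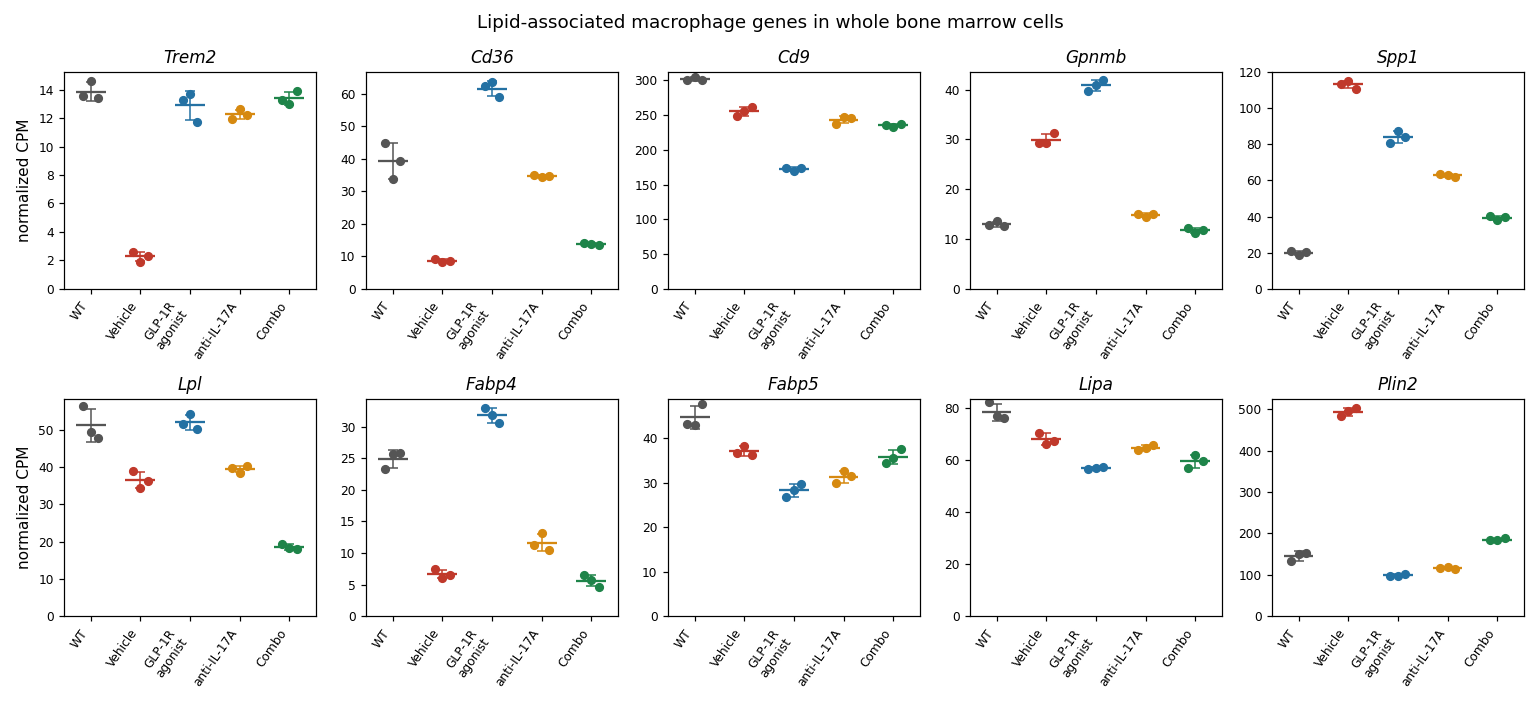
Normalized CPM of the 10 genes in the 15 BM libraries by group, with each point 1 library, the horizontal line the mean and the bar 1 SD (n = 3). Trem2 is low only in Vehicle (2.61, 1.91 and 2.31 CPM), and Plin2 and Spp1 are highest there.

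Trem2 in BM had 13.5, 14.6 and 13.4 CPM in WT, 2.61, 1.91 and 2.31 in Vehicle, 13.3, 13.7 and 11.7 with the GLP-1R agonist, 11.95, 12.6 and 12.2 with anti–IL-17A and 13.3, 13.01 and 13.9 in Combo. The Vehicle libraries, with 62 to 80 counts each, stood apart from the other 12, among which neighbouring groups overlapped. It fell in Vehicle by 2.61 ± 0.11 (edgeR adjusted p = 1.41e-23), a 6.10-fold decrease. It rose against Vehicle by 2.51 ± 0.11, 2.43 ± 0.11 and 2.56 ± 0.11 with the GLP-1R agonist, anti–IL-17A and Combo (adjusted p = 6.93e-23, 2.56e-22 and 3.39e-23). Combo differed from WT by -0.047 ± 0.081 (adjusted p = 0.612). Resident macrophage markers (8 of 9 present) had 1 gene called higher and 5 lower in BM of Vehicle vs WT (median -1.33). Against Vehicle 4, 5 and 4 of the 8 were higher and 1, 1 and 2 lower with the GLP-1R agonist, anti–IL-17A and Combo (medians 1.17, 1.57 and 0.78). Their sum was 519 to 555 CPM in WT, 384 to 406 in Vehicle, 368 to 371 with the GLP-1R agonist, 524 to 530.4 with anti–IL-17A and 519 to 524 in Combo. Most of each sum was F13a1, at 443 to 473 CPM in WT, 366 to 389 in Vehicle and 270 to 277 with the GLP-1R agonist. With anti–IL-17A it had 460 to 467 CPM and in Combo 487 to 491. The part of the resident macrophage markers in the result was not tested.

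Cd36 in BM was lowest in Vehicle as well, at 9.12, 8.30 and 8.44 CPM against 44.97, 33.9 and 39.3 in WT. It had 62.3, 63.6 and 59.04 CPM with the GLP-1R agonist, 35.1, 34.4 and 34.6 with anti–IL-17A and 13.97, 13.7 and 13.5 in Combo. It fell in Vehicle by 2.20 ± 0.078 (edgeR adjusted p = 4.18e-22) and rose against Vehicle by 2.84 ± 0.076 with the GLP-1R agonist and 2.01 ± 0.079 with anti–IL-17A (adjusted p = 1.27e-25 and 7.25e-21). Combo, at 0.67 ± 0.090 against Vehicle, stayed within the fold limit and was 1.53 ± 0.072 below WT. Erythroid markers (3 of 5 present) were 291 to 306 CPM in Vehicle, 538 to 558 in WT, 832 to 833 with the GLP-1R agonist, 454 to 476 with anti–IL-17A and 267 to 284 in Combo, highest with the GLP-1R agonist as Cd36 was. Their part in the result was not tested.

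Spp1 and Plin2 rose in obese marrow as they did in ATMs. Spp1 had 20.7, 18.7 and 20.2 CPM in WT and 114, 115 and 111 in Vehicle BM, a rise of 2.51 ± 0.044 (edgeR adjusted p = 6.87e-37). Treated groups had 80.5, 87.3 and 84.1 with the GLP-1R agonist, 63.3, 62.9 and 61.9 with anti–IL-17A and 40.03, 37.9 and 39.6 CPM in Combo, each separate from Vehicle. Of these only Combo was called against Vehicle, where Spp1 fell by 1.53 ± 0.041 (adjusted p = 1.97e-30). Combo remained 0.98 ± 0.048 above WT, within the fold limit, and past it without WT replicate 1 (1.01) or without Combo replicate 2 (1.004).

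Plin2 had 133, 151 and 152 CPM in WT, 485, 496 and 504 in Vehicle, 97.8, 97.00 and 103 with the GLP-1R agonist, 116, 118 and 114 with anti–IL-17A and 183, 183 and 188 in Combo BM. It rose in Vehicle by 1.77 ± 0.036 (edgeR adjusted p = 9.33e-26) and fell by 2.32 ± 0.037, 2.10 ± 0.037 and 1.42 ± 0.036 with the GLP-1R agonist, anti–IL-17A and Combo (adjusted p = 2.70e-28, 2.64e-27 and 1.30e-23). Both single agents were below WT, and Combo was 0.35 ± 0.036 above it.

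Gpnmb was low in BM, at 12.7, 13.6 and 12.7 CPM in WT, 29.4, 29.3 and 31.2 in Vehicle, 39.7, 40.9 and 42.02 with the GLP-1R agonist, 14.98, 14.4 and 15.1 with anti–IL-17A and 12.3, 11.2 and 11.7 in Combo. It rose in Vehicle by 1.20 ± 0.061 and fell in Combo by 1.35 ± 0.063 (edgeR adjusted p = 1.17e-20 and 5.49e-22). The call of -1.02 ± 0.060 with anti–IL-17A lay at the fold limit and was lost without Vehicle replicate 3 (-0.99) or without anti–IL-17A replicate 2 (-0.995). Its groups with the GLP-1R agonist and with Combo differed by -1.80 ± 0.061 (adjusted p = 1.14e-26).

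Fabp4 in BM was opposite to ATMs in Vehicle vs WT. It had 23.3, 25.7 and 25.8 CPM in WT, 7.42, 6.04 and 6.58 in Vehicle, 32.98, 31.8 and 30.6 with the GLP-1R agonist, 11.3, 13.2 and 10.5 with anti–IL-17A and 6.56, 5.69 and 4.67 in Combo. Vehicle and Combo overlapped at the bottom and the GLP-1R agonist group stood alone at the top. It fell in Vehicle by 1.90 ± 0.092 (edgeR adjusted p = 3.13e-20) and rose with the GLP-1R agonist by 2.25 ± 0.090 (adjusted p = 8.49e-23), and Combo differed from Vehicle by -0.24 ± 0.11 (adjusted p = 0.052). Endothelial markers in BM summed to 75.3 to 83.7 CPM in WT and 71.4 to 73.8 in Vehicle, and to 44.6 to 48.2 with the GLP-1R agonist, the group in which Fabp4 was highest. Adipocyte markers (8 of 10 present) summed to 189.8 to 194 CPM in WT, 250.4 to 254 in Vehicle, 288 to 294 with the GLP-1R agonist, 269 to 270.3 with anti–IL-17A and 302 to 311 in Combo. Acsl1 made up most of each sum, at 155 to 160 CPM in WT, 202 to 204 in Vehicle and 242 to 249 with the GLP-1R agonist. The sums therefore mostly follow this gene. Of the 8, 1 rose and 1 fell in Vehicle vs WT (median 0.50), and 3 rose and 0 fell with the GLP-1R agonist (median 0.26). The part of both lists in the result was not tested.

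The remaining members varied less in BM. Lpl had 56.3, 49.3 and 47.9 CPM in WT, 38.8, 34.4 and 36.3 in Vehicle and 19.4, 18.3 and 17.9 in Combo, with 51.6, 54.2 and 50.3 with the GLP-1R agonist and 39.8, 38.4 and 40.2 with anti–IL-17A. Its fall of 0.97 ± 0.061 in Combo against Vehicle was within the fold limit and became a call without Vehicle replicate 2 (-1.02), Vehicle replicate 3 (-1.02) or Combo replicate 1 (-1.01). Cd9 ran from 175, 169.6 and 174 CPM with the GLP-1R agonist to 300.4, 306 and 301 in WT, Fabp5 from 26.9, 28.3 and 29.8 to 43.2, 43.1 and 47.8 and Lipa from 56.6, 56.9 and 57.2 to 82.2, 76.99 and 76.2, in the same 2 groups. None of Cd9, Fabp5 and Lipa was called in any of the 7 comparisons of BM.

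Combo BM had 0 members above WT (background 4.4%) and 3 below, Fabp4, Cd36 and Lpl (background 9.93%), with log2 fold changes of -2.14 ± 0.093, -1.53 ± 0.072 and -1.46 ± 0.058. Against the GLP-1R agonist 0 were higher (background 4.59%) and 5 were lower (Fabp4, Cd36, Gpnmb, Lpl and Spp1, background 8.57%), led by Fabp4 at -2.49 ± 0.091 (edgeR adjusted p = 6.16e-24). Against anti–IL-17A 0 were higher (background 1.04%) and 3 were lower, Cd36, Lpl and Fabp4 (background 4.63%). By DESeq2 too 0 were higher in each of these 3 comparisons, and at an unadjusted p below 0.05 the edgeR counts were 2 against WT, 3 against the GLP-1R agonist and 2 against anti–IL-17A. The fall of Fabp4 against anti–IL-17A, at -1.05 ± 0.10, was no longer called without anti–IL-17A replicate 2 (-0.95) or Combo replicate 3 (-0.93).

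The effects were compared between tissues with an interaction term in 1 fit of all 30 libraries over the 13076 genes of both tables. Sorted ATMs and unsorted BM differ in cell preparation as well as in tissue, which cannot be told apart. Whether both tissues came from the same mice is not labelled, and the SEs and p-values take the libraries as independent. For Vehicle vs WT the effect differed in 9 of the 10 genes at a false discovery rate below 0.05 (background 56%). Fabp4 differed most, with an ATM minus BM difference of 3.92 ± 0.10 on the log2 scale, followed by Cd36 (2.97 ± 0.082) and Trem2 (2.65 ± 0.14), each of which fell in obese BM and was not called lower in obese ATMs. Lpl did not pass, at 0.16 ± 0.080 (edgeR adjusted p = 0.091). These differences are under TMM over the 30 libraries. For Combo vs Vehicle 8 of the 10 passed (background 55.1%), with Lpl at 3.86 ± 0.085, Gpnmb at 3.12 ± 0.055 and Lipa at 2.61 ± 0.067, the last 2 of which turn negative when the ATM shift of the Csf1r and Adgre1 scale is added. Trem2 rose in Combo in both tissues under TMM, and the difference was -0.29 ± 0.14 (adjusted p = 0.0745), and for Cd36 it was -0.057 ± 0.086 (adjusted p = 0.598).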

How the data were processed

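RNA was sequenced from F4/80+ cells sorted from visceral adipose tissue (ATMs) and from whole BM cells of the 5 groups, with 3 libraries per group and tissue. Libraries were paired-end and unstranded. The authors aligned reads to mm10 (GRCm38) with STAR 2.7.2a and counted them with featureCounts 2.0.1, without regard to strand and with reads on overlapping genes assigned to all of them. The deposited values are raw counts per gene. Column titles tied each column to a labelled sample, and all libraries carry 1 batch label.

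The 10 genes, the lists and the tests were chosen with earlier results of these data known. Each tissue was fitted with edgeR 4.0.16 (R 4.3.3), using TMM factors and a robust quasi-likelihood model of all 15 libraries. The low-count filter (filterByExpr) took out 0 genes, so a fit without it was the same fit, and the smallest sum over a table's libraries was 54 counts in ATMs and 55 in BM. Tests were 2-sided with Benjamini-Hochberg adjustment across the whole table. Calls needed an adjusted p under 0.05 and a log2 fold change beyond 1 or -1. SEs were the log2 fold change divided by the root of the F statistic. One fit of 30 libraries gave the interaction and treated ATM and BM libraries as independent. The labels do not say whether both tissues came from the same mice, so a pairing by mouse could not be modelled. Code was tested on simulated counts. Alternatives were DESeq2 1.42.0, its size factors used in edgeR, another minimum count, no fold limit, fewer groups in the fit, a replicate block and each library left out. Scaling to macrophage markers was added after the values were seen.

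Named genes were the members, the 3 called genes of largest change per pathway list in ATMs (Vehicle vs WT, Combo vs Vehicle), the 5 nearest in pattern (mean count 10 or more), and the most counted marker of a list. Csf1r and Adgre1 were chosen after their values were seen. Gene models, lengths and overlaps were GENCODE M21, whereas the authors counted on another release, M22, and promoters RefSeq GRCm38.p6.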

Additional observations from a re-analysis of the deposited data

Results flagged for a closer look

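The Vehicle vs WT effect differed between ATMs and BM by the interaction test in 9 of the 10 genes, against 56% of all 13076 genes. On the log2 scale the ATM minus BM difference was positive for Fabp4 (3.92 ± 0.10), Cd36 (2.97 ± 0.082), Trem2 (2.65 ± 0.14), Cd9 (1.64 ± 0.058), Fabp5 (1.56 ± 0.088), Spp1 (1.48 ± 0.097), Plin2 (1.14 ± 0.051) and Gpnmb (0.63 ± 0.054). It was negative for Lipa (-0.29 ± 0.066). The largest edgeR adjusted p among them was 0.000476. The response to Combo (Combo vs Vehicle) differed in 8 of the 10 genes, against 55.1% of all genes. On the log2 scale the ATM minus BM difference was positive for Lpl (3.86 ± 0.085), Gpnmb (3.12 ± 0.055), Lipa (2.61 ± 0.067), Spp1 (1.69 ± 0.093), Plin2 (0.55 ± 0.051) and Fabp5 (0.37 ± 0.088). It was negative for Fabp4 (-1.59 ± 0.11) and Cd9 (-0.54 ± 0.057). The largest edgeR adjusted p among them was 0.000911. All these differences are under TMM. With the shift that the macrophage scales give the ATM values added, the sign turned on both scales for Lipa in Vehicle vs WT (0.46 on the summed markers and 2.80 on Csf1r and Adgre1) and for Spp1 (-0.36 and -1.92), Plin2 (-1.49 and -3.06) and Fabp5 (-1.68 and -3.24) in Combo vs Vehicle. On Csf1r and Adgre1 alone it turned for Lipa (-0.99) and Gpnmb (-0.48) in Combo vs Vehicle, and these sums were not tested. Values are ± SE with 3 libraries per group, and the same Vehicle libraries enter both sets. ATMs and BM differ in cell preparation, which cannot be told apart from tissue. Groups of 3 libraries are too small for a test of single outlying libraries.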

How the results depend on the processing

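The low-count filter removed 0 genes, so taking it away tested nothing. No call among the members changed with the replicate block. Within a tissue, deviations of same-numbered libraries of different groups correlated at -0.022 to 0.034 in ATMs and -0.030 to 0.052 in BM. Libraries of other numbers correlated at -0.041 to 0.034 and -0.053 to 0.044. A pairing of ATM with BM libraries by number was not tested. With the replicate block 70 of 70 member results in each tissue and 20 of 20 interactions stayed on the same side of the threshold. With only genes of at least 10 counts in every library, the number of all genes called was 3934 (Vehicle vs WT), 3335 (GLP-1R agonist vs Vehicle), 3724 (anti–IL-17A vs Vehicle), 2064 (Combo vs WT), 1592 (Combo vs GLP-1R agonist) and 768 (Combo vs anti–IL-17A) in ATMs and 1428 (anti–IL-17A vs Vehicle) and 422 (Combo vs anti–IL-17A) in BM. That setting also made Fabp5 a call in ATMs with anti–IL-17A (log2 fold change 1.02). Without the fold limit 9704 (Vehicle vs WT), 9176 (GLP-1R agonist vs Vehicle), 9914 (anti–IL-17A vs Vehicle), 8309 (Combo vs Vehicle), 7010 (Combo vs WT), 6788 (Combo vs GLP-1R agonist) and 4875 (Combo vs anti–IL-17A) genes were called in ATMs and 10227 (Vehicle vs WT), 9717 (GLP-1R agonist vs Vehicle), 9750 (anti–IL-17A vs Vehicle), 9849 (Combo vs Vehicle), 9792 (Combo vs WT), 9529 (Combo vs GLP-1R agonist) and 7015 (Combo vs anti–IL-17A) in BM. Members called in ATMs were then 7, 6, 7, 6, 10, 1 and 0 higher and 2, 3, 2, 3, 0, 8 and 9 lower in Vehicle vs WT, the 3 treatments vs Vehicle (GLP-1R agonist, anti–IL-17A, Combo) and Combo vs WT, vs GLP-1R agonist and vs anti–IL-17A. In BM they were 3, 5, 3, 2, 2, 3 and 2 higher and 7, 5, 5, 6, 6, 5 and 6 lower, in the same order. Values near 0 changed sign. Spp1 in ATMs with the GLP-1R agonist was -0.034 with DESeq2 size factors, -0.034 with DESeq2 and -0.041 with only those groups in the fit, and Fabp4 in Combo vs anti–IL-17A was 0.0062 in the last of these. Under DESeq2 size factors the ATM minus BM difference passed for Lpl in Vehicle vs WT (0.19) and for Trem2 in Combo vs Vehicle (-0.40). Scaled to the summed macrophage markers, an alternative added later, the ATM log2 fold changes that reversed in Vehicle vs WT were Lpl 0.42 and Lipa 0.25. In GLP-1R agonist vs Vehicle on this scale 0 members were higher, 6 were lower and 12474 genes were called, and Spp1 -1.99, Fabp5 -1.44 and Cd36 -1.14 reversed. In anti–IL-17A vs Vehicle on this scale 0 members were higher, 6 were lower and 13624 genes were called, and Spp1 -1.68, Fabp5 -1.56 and Cd36 -1.29 reversed. In Combo vs Vehicle on this scale 0 members were higher, 6 were lower and 12163 genes were called, and Gpnmb -0.31, Spp1 -1.93, Fabp5 -1.77 and Cd36 -1.47 reversed. In Combo vs WT it was 3 higher, 1 lower and 11092 genes, and Cd9 -0.60 and Fabp4 -1.15 reversed. In Combo vs anti–IL-17A it was 0 higher, 0 lower and 3535 genes, and Fabp4 0.50 and Plin2 0.30 reversed. Scaled to Csf1r and Adgre1, an alternative added later, the ATM log2 fold changes that reversed in Vehicle vs WT were Lpl 2.78 and Lipa 2.60. There 10 members were higher and 13790 genes were called. In GLP-1R agonist vs Vehicle on this scale 0 members were higher, 10 were lower and 14667 genes were called, and Trem2 -1.01, Lpl -1.15, Gpnmb -1.16, Spp1 -3.71, Fabp5 -3.19, Lipa -1.21 and Cd36 -2.87 reversed. In anti–IL-17A vs Vehicle on this scale 0 members were higher, 7 were lower and 15109 genes were called, and Trem2 -0.96, Lpl -0.89, Gpnmb -1.79, Spp1 -3.55, Fabp5 -3.45, Lipa -0.94 and Cd36 -3.16 reversed. In Combo vs Vehicle on this scale 0 members were higher, 9 were lower and 14463 genes were called, and Trem2 -1.38, Lpl -0.77, Gpnmb -1.87, Spp1 -3.49, Fabp5 -3.34, Lipa -1.23 and Cd36 -3.03 reversed. In Combo vs WT it was 7 higher, 0 lower and 5018 genes, and Fabp4 -0.37 reversed. In Combo vs anti–IL-17A it was 0 higher, 0 lower and 5887 genes, and Cd9 0.22, Lpl 0.12, Spp1 0.063, Fabp4 0.81, Fabp5 0.11, Cd36 0.13 and Plin2 0.61 reversed. Leaving out 1 library at a time gave log2 fold changes of -0.11 to 0.14 for Trem2 in ATM Vehicle vs WT, -0.053 to 0.062 for Spp1 in ATM GLP-1R agonist vs Vehicle, -0.03 to 0.026 for Fabp4 in ATM Combo vs anti–IL-17A, -0.074 to 0.00097 for Trem2 in BM Combo vs WT and -0.0086 to 0.10 for Trem2 in BM Combo vs GLP-1R agonist. The number of members called ranged from 0 to 1 for those higher in BM Combo vs WT, 1 to 2 for those lower in BM anti–IL-17A vs Vehicle, 5 to 6 for those higher in ATM anti–IL-17A vs Vehicle, 3 to 4 for those lower in BM Combo vs Vehicle and 2 to 3 for those lower in BM Combo vs anti–IL-17A. Spp1 turned to -0.053 without GLP-1R agonist replicate 2, Trem2 in ATM Vehicle vs WT to -0.11 without Vehicle replicate 1, and Fabp4 in ATM Combo vs anti–IL-17A to 0.001 to 0.026 without anti–IL-17A replicates 1 or 2 or Combo replicates 1 or 3. Causes were not tested. BM Trem2 in Vehicle rests on 62 to 80 counts per library.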
